A study of Pimephales promelas with 270 samples.

Results

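The 100 transcripts described here are those that were lower in unexposed larvae of the fathead minnow (Pimephales promelas) 6 h into an experiment than 24 and 48 h into it, at each of 3 ages. They were taken from 34856 transcripts by a score. CPM is a transcript's count after its library was scaled to a total of 1000000, and levels were averaged as log2(CPM+1) over the controls of a group. At each age the 6 h mean was subtracted from the smaller of the 24 h and 48 h means, and the score was the smallest of the 3 differences. The 100 highest scores ran from 3.07 down to 0.57, and the transcript at rank 101 scored 0.56. No gap marks the boundary, since ranks 91 to 110 lay between 0.60 and 0.54. With this score 125 transcripts exceeded 0.5 and 5 exceeded 2. With its mirror image, which finds transcripts higher at 6 h at every age, 31 exceeded 0.5 and 0 exceeded 2. Above 0 the order was the reverse, with 2966 transcripts by the score and 3453 by its mirror image. The members were thus chosen by their levels in the controls, which are given as a description with no test.

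The species is a North American freshwater fish and a standard test animal of ecotoxicology. Larvae labelled 4, 5 or 6 days post fertilization spent 6, 24 or 48 h as controls, in 0.66 mg/l propranolol (the low dose) or in 3.3 mg/l propranolol (the high dose), a blocker of beta-adrenergic receptors. The series asks how the response varies with age and with the duration of exposure. Each of the 9 combinations of age and duration is called a set. Of the 27 groups, 24 held 10 libraries. At 6 days and 24 h both propranolol groups held 9, and at 6 days and 48 h the controls held 8, which gives 178 propranolol and 88 control libraries. Library codes differ from set to set, so anything else that set a code apart cannot be told apart from age or duration. Separate vessels for the libraries of a group are not stated, so the spread behind each p-value is that between libraries and may be technical. The treatment text attached to the samples speaks of ethinyl estradiol, and the propranolol labels were used.

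Library totals ran from 5.37 M to 31.0 M counts (M, 1000000). The median at 6 h was 14.1 M, between those at 24 and 48 h, and a median of 34240.5 transcripts had counts at 6 h, 34346.0 at 24 h and 34339.5 at 48 h. 19 libraries lay far from their own group over all transcripts, 8 of them at 6 h, 4 at 24 h and 7 at 48 h.

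Larval fish change their transcripts for several reasons that run side by side. As organs mature, genes of the finished tissue are switched on with age. In zebrafish, a related fish, most tissues also hold a circadian clock that is set by light, and many transcripts follow the time of day. Moving a larva to a new vessel is a further change, to which handling and new water belong. The transcripts carry bare identifiers, and 0 of the 100 matched a name in the RefSeq gene table, so neither a function nor a sequence can be given. Only 4 identifiers are printed, and the other members are called by their rank in the score. RNA came from larvae in bulk, where fewer cells of a type and less RNA per cell cannot be told apart.

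The rule used no propranolol library, so these 178 libraries, fitted without the controls, gave a test of the same pattern in other libraries. They belong to the same sets as the controls. Anything besides age and duration that set a set apart would recur in them, and the test cannot separate it. As the mean of the 3 ages and 2 doses, 100 of the 100 members were higher at 24 h than at 6 h, and 0 were lower, where 19.9% of the 30590 transcripts tested were higher and 20.2% lower (edgeR quasi-likelihood test, false discovery rate 0.05). 100 of 100 were also higher at 48 h than at 6 h and 0 lower, against 26.0% and 29.4% of all. From 24 h to 48 h, 95 were higher and 0 lower (19.9% and 21.1% of all transcripts). The median log2 fold change of the members was 1.62 at 24 h over 6 h, or 3.07-fold, and 2.56 at 48 h over 6 h, or 5.90-fold. The medians over all transcripts were -0.0037 and -0.019. All 100 members passed the filter on low counts, which was a mean of 0.5 CPM over the propranolol libraries. That mean includes the 24 h and 48 h libraries, where the members are high. At 6 h the lowest member means were 0.105, 0.195 and 0.0816 CPM in larvae of 4, 5 and 6 days. The fold changes of such members start near the floor.

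The pattern held within each age. At 4 days 98 members were higher at 24 h than at 6 h (13.6% of all transcripts higher, 11.9% lower) and 100 at 48 h (20.1% and 21.8%). At 5 days 100 were higher at 24 h (11.0% of all transcripts higher) and 100 at 48 h (15.4% and 16.9%). At 6 days 83 were higher at 24 h (10.6% and 10.2%) and 99 at 48 h (18.9% and 19.0%), and the 83 became 51 with the low-dose libraries alone. In these 6 tests 0 members were lower. When the score was computed in the low-dose or in the high-dose libraries, it was above 0 for 99 of the 100 members at either dose, against 9.20% and 11.4% of all transcripts. The 100 highest scores of the low-dose libraries included 58 of the members, and those of the high-dose libraries 67.

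**Figure D1:**
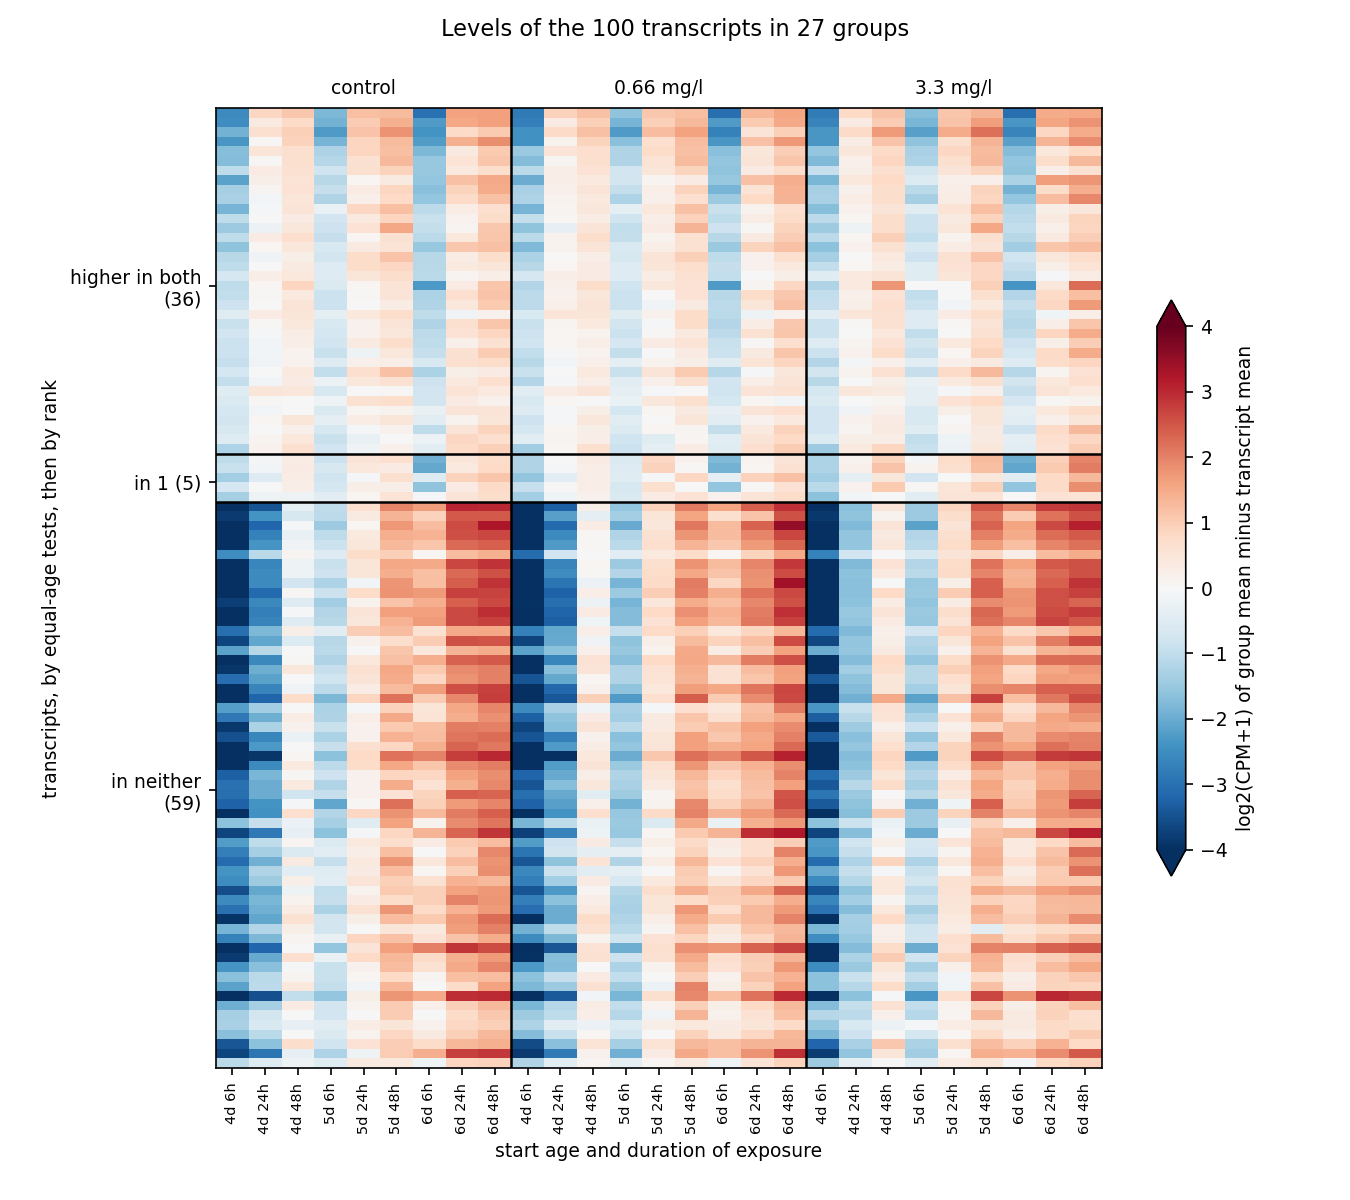
Rows are the 100 transcripts and columns the 27 groups, as control, 0.66 mg/l and 3.3 mg/l blocks, each by age and duration. Colour is the log2(CPM+1) of the group mean minus the transcript's mean over groups, with values beyond 4 in either direction drawn at the end of the scale. Most rows drop at the 6 h column of the next age. The median at 6 h in larvae of 4, 5 and 6 days was 6.36, 8.78 and 6.04 CPM over the upper 36 rows, and 1.36, 12.7 and 49.9 CPM over the lower 59, in propranolol libraries. The 5 rows in the middle were higher in 1 comparison at nearly equal age.

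FMt043868 had the highest score. In the 60 propranolol libraries at 6 h it ran from 3.19 to 23.3 CPM with a median of 6.86. In the 58 at 24 h it ran from 69.0 to 167.5 CPM with a median of 106.5, and in the 60 at 48 h from 80.7 to 187.6 CPM with a median of 123.5. The 6 h libraries did not overlap with the later ones at any age or dose. On the log2 scale the 24 h level exceeded the 6 h level by 3.80 ± 0.06 (SE, edgeR adjusted p = 6e-117), or 13.9-fold, which was the largest rise among the 30590 transcripts in that comparison. At 48 h it was above 24 h by 0.21 ± 0.05 (SE, edgeR adjusted p = 0.00038), a far smaller step.

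FMt043868 was low again at 6 h at every age, with the 5-day set above the other two. At 6 h, controls had 7.65 ± 1.98 CPM at 4 days, 13.5 ± 5.73 CPM at 5 days and 5.45 ± 1.65 CPM at 6 days (SD, n = 10 each). The low-dose libraries had 6.14 ± 1.60, 15.7 ± 3.70 and 5.35 ± 1.14 CPM at these ages (SD, n = 10 each). The high-dose libraries had 6.36 ± 1.68 CPM at 4 days and 14.5 ± 5.52 CPM at 5 days (SD, n = 10 each), and ran from 3.77 to 6.90 CPM at 6 days. At 6 h the doses overlapped at each age. At 24 h the controls had 89.2 ± 11.8 CPM, 115 ± 16.2 CPM and 154.1 ± 16.4 CPM at these ages (SD, n = 10 each). In the 6-day, 24 h set the low dose had 127.1 ± 12.9 CPM and the high dose 139.9 ± 18.8 CPM (SD, n = 9 each), so the low dose lay below the controls by more than either SD.

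FMt005587, at rank 2, had the same shape at a lower level. In the propranolol libraries it ran from 0.511 to 6.61 CPM at 6 h, from 12.1 to 68.7 CPM at 24 h and from 22.0 to 102.1 CPM at 48 h, again with no overlap between 6 h and later. The rise from 6 h to 24 h was 3.71 ± 0.08 on the log2 scale (SE, edgeR adjusted p = 3.4e-96). The transcript with the number just before it is at rank 27, and reads shared between neighbouring numbers cannot be told apart.

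**Figure D2:**
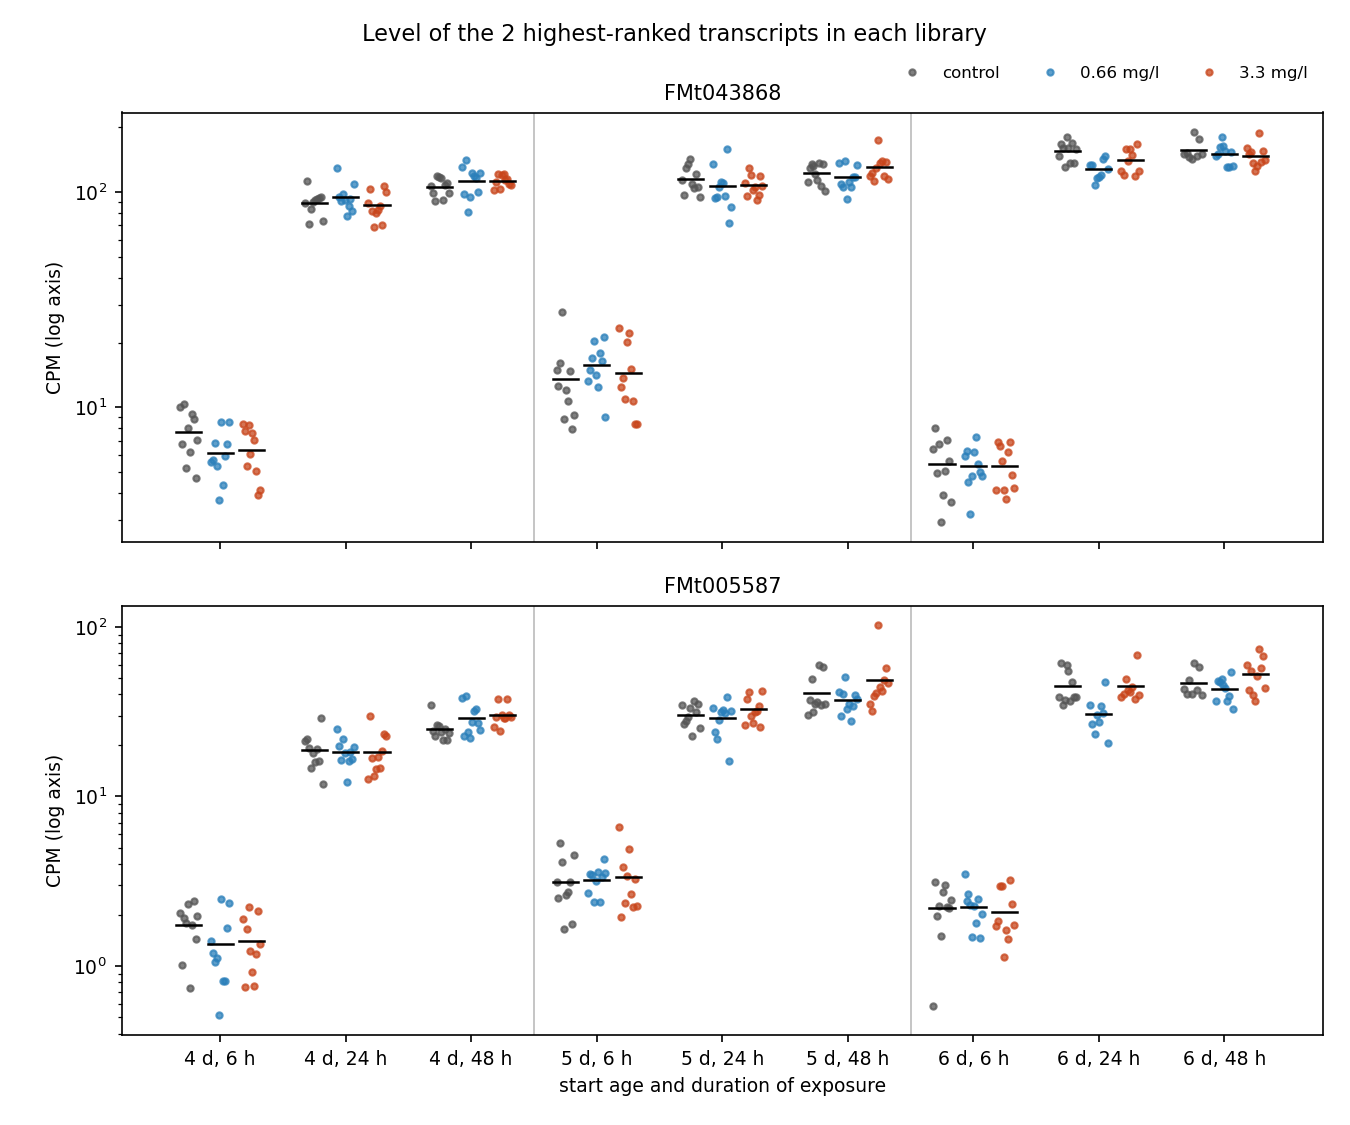
Each point is 1 library, placed by age and duration with control, 0.66 mg/l and 3.3 mg/l side by side, and the bars are group means. The vertical axis is CPM on a log scale. In FMt043868 the 6 h libraries of all doses lie between 2.94 and 27.8 CPM and the later ones between 69.0 and 189.6 CPM.

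Over all ages, 10 of 34856 transcripts had every 24 h and 48 h propranolol library above every 6 h library of the same age, and these 10 are members (0.0287% of all transcripts). Within single ages this held for 37 members at 4 days (40 later against 20 libraries at 6 h), 16 at 5 days (40 against 20) and 32 at 6 days (38 against 20). The shares among all transcripts were 0.27%, 0.066% and 0.204%.

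The design allows a comparison at nearly equal age, if the labelled age is that at the start of the exposure. Larvae of 4 days after 24 h are then 5.0 days old, and they are set against larvae of 5 days after 6 h. Likewise larvae of 4 days after 48 h and of 5 days after 24 h are 6.0 days old. The mean of these sets is set against larvae of 6 days after 6 h, so single sets are not tested. In both comparisons the 6 h larvae are the older ones by 0.25 days. Whether the label gives the age at the start or at the end is not stated, and if it gives the end, these larvae differ in age by a day or more.

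The members were sorted into patterns by their calls in these comparisons. In propranolol libraries, 37 members were higher and 23 lower in 4-day larvae after 24 h than in 5-day larvae after 6 h (9.51% and 10.5% of all transcripts). 40 were higher and 36 lower in the mean of 4-day, 48 h and 5-day, 24 h larvae than in 6-day larvae after 6 h (12.9% and 13.1%). 36 members were higher in both comparisons, against 4.04% of all transcripts, 59 in neither and 5 in only 1 of them. Most of all transcripts were likewise higher in neither, given the 9.51% and 12.9% above, and their exact share was not counted. The 59 are thus defined by the lack of a call. Of the 59, 18 were lower in both (3.6% of all transcripts) and 41 in at least 1, for which the share of all transcripts was not counted. The 23 and the 36 lower members became 4 and 23 with the high-dose libraries alone. In the comparison at about 5 days the log2 fold changes of the 36 began at 0.30 and those of the 59 reached 0.60, so the ranges overlapped. This grouping was made on the propranolol libraries after their values were seen, so what follows on each group from the same libraries is a description by counts.

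**Figure D3:**
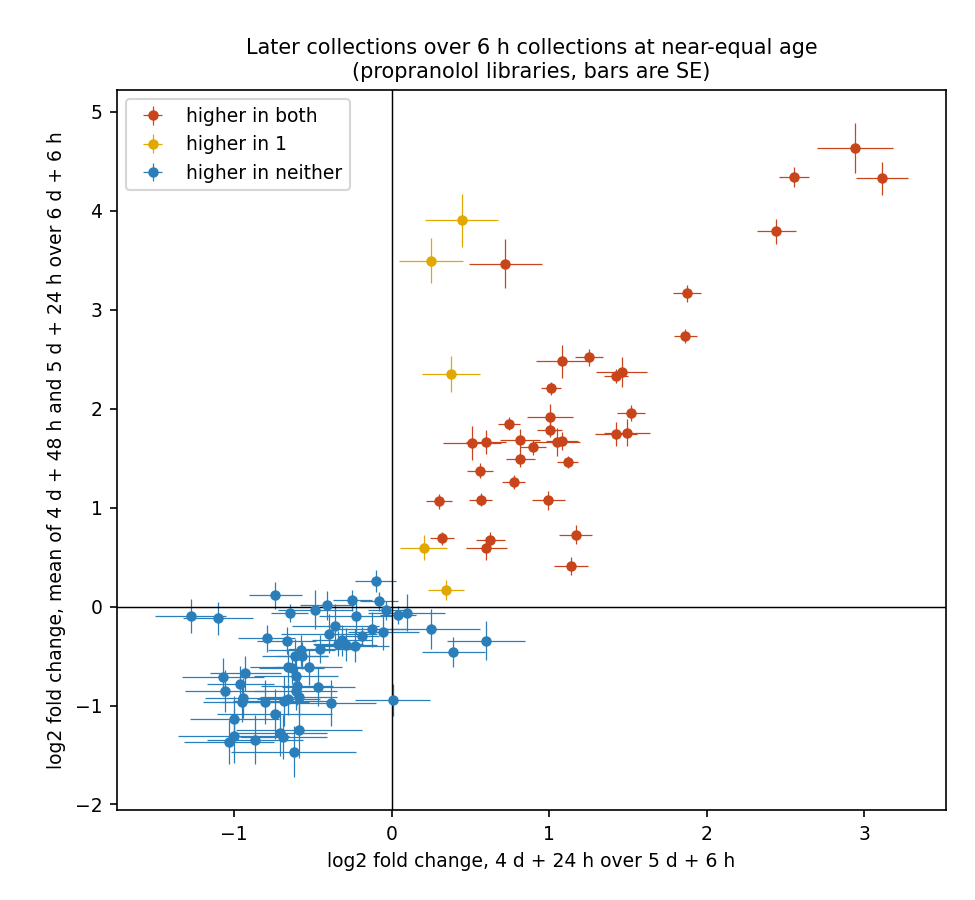
Each point is 1 of the 100 transcripts in the propranolol libraries, with bars for the SE. The horizontal axis is the log2 fold change of 4-day larvae after 24 h over 5-day larvae after 6 h. The vertical axis is that of the mean of 4-day, 48 h and 5-day, 24 h larvae over 6-day larvae after 6 h. The 36 transcripts higher in both lie at 0.30 to 3.11 and 0.41 to 4.64, and the 59 higher in neither lie at -1.28 to 0.60 and -1.47 to 0.26.

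The 36 transcripts were low in the 6 h collections of every age. Their median log2 fold change at nearly equal age was 1.03 at 5 days and 1.71 at 6 days. The grouping fixed the sign of these medians. For FMt043868 the values were 2.55 ± 0.09 (SE, edgeR adjusted p = 7.6e-59) and 4.34 ± 0.10 (SE, edgeR adjusted p = 2.2e-89), which are 5.87-fold and 20.3-fold. For all 36, the 3 mean levels at 6 h lay below the 6 mean levels at 24 and 48 h. This pattern, which the rule and the grouping favour, was found in 2.81% of all transcripts tested. The median level over the 36 was 6.36, 8.78 and 6.04 CPM at 6 h for larvae of 4, 5 and 6 days, and 20.9, 20.9 and 28.1 CPM at 24 h. At 6 h, 12 of them were higher and 12 lower in 6-day than in 4-day larvae (24.6% and 27.5% of all transcripts), with a median log2 fold change of -0.11. The group held the 7 highest ranks and 12 of the highest 20.

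On the log2 scale, as the mean of ages and doses, most of the rise of these 36 was complete at 24 h. In CPM the median level over the 36 went on from 20.9, 20.9 and 28.1 at 24 h to 29.3, 31.1 and 40.9 at 48 h, for larvae of 4, 5 and 6 days. The median log2 fold change was 1.54 at 24 h over 6 h and 0.43 at 48 h over 24 h. 33 of the 36 were nonetheless higher at 48 h than at 24 h (19.9% of all transcripts). At equal age plus duration, larvae of 4 and 5 days after 48 h were set against larvae of 5 and 6 days after 24 h, as the mean of both pairs. There 20 of the 36 were higher and 4 lower with the longer stay (18.6% and 19.6% of all). The median of this difference was 0.21 on the log2 scale. FMt043868 (-0.08 ± 0.06, SE, edgeR adjusted p = 0.31) and FMt005587 (0.01 ± 0.08, SE, edgeR adjusted p = 0.92) did not pass that test. Over all 100 members the test gave 23 higher and 16 lower. These counts were 15 and 5 with the low-dose libraries alone, and 9 were lower with the high-dose libraries alone.

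The hour at which larvae were placed in the vessels or collected is not in the labels. If all exposures began at the same hour of the day, the 24 h and 48 h larvae were collected at that hour and the 6 h larvae at another. For the 36 transcripts the hour of collection, the first hours in a new vessel and the library codes of the 6 h sets therefore cannot be told apart.

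The 59 transcripts went with age plus duration. Their level in propranolol libraries, as the median over the transcripts, was 1.36, 9.79 and 41.2 CPM after 6, 24 and 48 h in 4-day larvae. It was 12.7 CPM in 5-day larvae after 6 h, between the 4-day levels at 24 and 48 h. At 6.0 days it was 43.3 CPM in 5-day larvae after 24 h, beside the 41.2 CPM of 4-day larvae after 48 h, and it was 49.9 CPM in 6-day larvae after 6 h. It was 74.0 CPM and 67.4 CPM at 7.0 days, in 5-day larvae after 48 h and in 6-day larvae after 24 h, and 105 CPM at 8.0 days. 46 of the 59 rose at each of the steps between the 7 distinct values of age plus duration. Of all transcripts tested 2.27% did so, and the rule and the grouping favour such a rise. Across the 9 sets, the correlation of the level with age plus duration had a median r of 0.94 over the 59 and of 0.70 over the 36, and the sets share library codes with age and duration. Over all transcripts tested the median was -0.205. For collection at 24 or 48 h against 6 h, the median r was 0.53 over the 59, 0.91 over the 36 and -0.08 over all. The rule and the grouping bear on these medians of the members.

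Against slightly younger larvae collected later, 0 of the 59 passed the test for a lower level at 6 h, which is how they were grouped. Their median log2 fold change at nearly equal age was -0.59 at 5 days and -0.50 at 6 days, and the grouping bears on the sign of these medians. At equal age plus duration 3 were higher and 11 lower after 48 h than after 24 h (18.6% and 19.6% of all transcripts). The lower count is thus near the share of all transcripts. The median difference was -0.21 on the log2 scale. 59 of 59 were higher in 6-day than in 4-day larvae, both at 6 h (24.6% of all transcripts) and as the mean of the 3 durations. The rule and the grouping favour this count, so it is a description and not a separate test. Over all 100 members the mean of the durations gave 86 higher and 4 lower (32.9% and 34.9% of all transcripts).

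The member at rank 8 is the highest-ranked of the 59. Among low-dose larvae of 4 days it had 0 to 1.20 CPM at 6 h (median 0.249), 2.73 to 33.7 CPM at 24 h (median 10.4) and 79.8 to 308.1 CPM at 48 h (median 109.8). Low-dose larvae of 6 days had 221.8 to 595.2 CPM at 6 h (median 420.3), 325.9 to 1233 CPM at 24 h (median 724.1) and 735.1 to 1428 CPM at 48 h (median 1023). At the low dose all 6 h libraries of 6-day larvae thus lay above all 24 h libraries of 4-day larvae. The latter larvae are younger by age plus duration. At nearly equal age the 6 h libraries overlapped at this dose with 4-day, 48 h and 5-day, 24 h libraries (the latter 43.0 to 547.7 CPM). At the high dose the 6-day, 6 h libraries overlapped with the 4-day, 24 h ones. They ran from 37.3 to 799.3 CPM (median 562.9), and the 4-day, 24 h libraries from 2.94 to 265.3 CPM (median 14.5). The later collections of 4-day and 5-day larvae stood at a log2 fold change of -1.13 ± 0.23 over 6-day larvae after 6 h (SE, edgeR adjusted p = 3.2e-05).

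**Figure D4:**
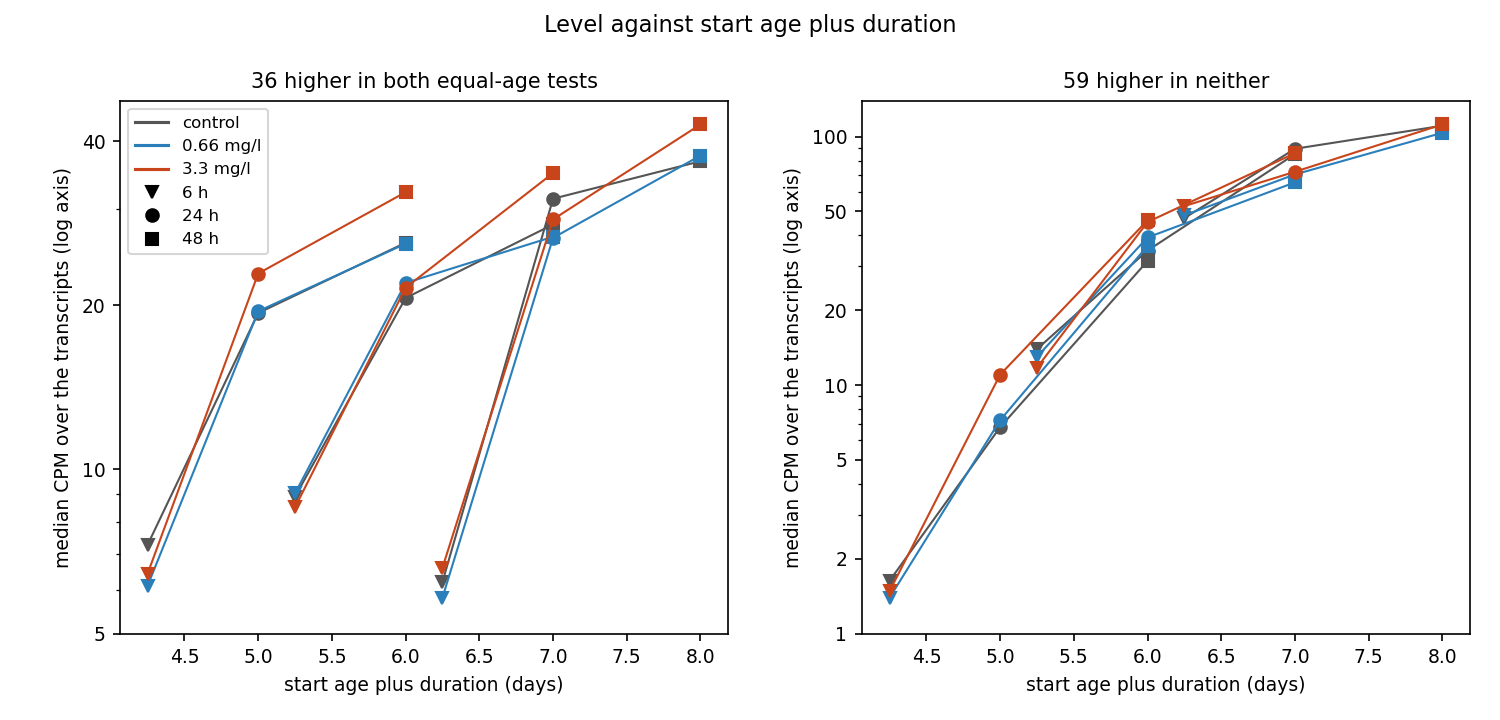
The horizontal axis is labelled age plus duration in days and the vertical axis the median CPM over the transcripts, on a log scale, for the 36 (left) and the 59 (right). Lines join the 3 durations of larvae of 1 age at 1 dose, triangles are 6 h, circles 24 h and squares 48 h. On the left the 6 h points return to between 5 and 10 CPM at each age, and on the right the points follow a single climb.

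The size of the rise after 6 h differed between 6-day and 4-day larvae for most members. Its direction in each pattern is tied to the grouping, which used the same 6-day, 6 h libraries. The rise was taken as the mean of 24 and 48 h over 6 h and compared directly between 6-day and 4-day larvae. It was larger at 6 days for 25 members and smaller for 61 (13.0% and 14.1% of all transcripts). Of the 36, 22 had a larger and 3 a smaller rise at 6 days, with a median difference of 0.52 on the log2 scale. Of the 59, 0 had a larger and 57 a smaller rise, with a median difference of -2.66. FMt043868 rose more at 6 days by 0.79 ± 0.12 (SE, edgeR adjusted p = 1.2e-08), and the difference for FMt005587 was 0.29 ± 0.18 (SE, edgeR adjusted p = 0.24).

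Among the 5 transcripts that were higher in only 1 of the comparisons, 3 belong to a run of 4 consecutive numbers, at ranks 39, 52 and 80, and the fourth of the run, at rank 41, is among the 36. In 6-day larvae after 6 h the transcript at rank 39 had 0.472 CPM in controls, 0.635 CPM at the low dose and 0.436 CPM at the high dose. In 5-day larvae after 6 h it had 2.09 CPM in controls, 2.72 CPM at the low dose and 4.43 CPM at the high dose. In the comparison at about 6 days the later collections were higher by 3.90 on the log2 scale. At about 5 days the value was 0.45, which did not pass the test (edgeR adjusted p = 0.17).

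At 48 h this run of 4 also showed the largest differences between the doses among the members, in either direction. There, as the mean of the 3 ages, the high dose was above the low dose by log2 fold changes of 1.15 ± 0.18 at rank 39, 0.98 ± 0.18 at rank 41, 1.23 ± 0.16 at rank 52 and 1.04 ± 0.15 at rank 80 (SE, edgeR adjusted p of 2e-05 or less). At rank 52 the means at 48 h were 9.89, 9.87 and 14.2 CPM in controls of 4, 5 and 6 days, 9.38, 8.00 and 12.3 CPM at the low dose, and 18.1, 18.9 and 34.7 CPM at the high dose. The 4 neighbours can share reads, so they may stand for fewer than 4 separate signals.

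The members were compared between the doses and not tested against controls, whose levels chose them. As the mean of the 9 sets, 30 members were higher and 0 lower at the high than at the low dose (5.65% and 4.97% of all transcripts). The 30 are 12 of the 36, 15 of the 59 and 3 of the 5, with log2 fold changes of 0.11 to 0.57. This count was 5 without the 6-day sets, 15 without the 5-day sets, 16 without the 4-day sets and 14 with limma-voom. The 5 is near the 5.65% of all transcripts in the full fit, and the shares of all transcripts in the other fits were not counted. In the 6-day, 24 h set the mean of log2(CPM+1) over the 59 was 7.05 ± 0.20 in controls (SD, n = 10), 6.53 ± 0.45 at the low dose (SD, n = 9) and 6.84 ± 0.37 at the high dose (SD, n = 9). Over the 36 it was 4.73 ± 0.14 in controls, 4.60 ± 0.16 at the low dose and 4.76 ± 0.11 at the high dose (SD, same n). The part of that low-dose group in the count of 30 was not tested beyond leaving out the 6-day sets. Other sets differed from their controls too, here as the median over the 59 of dose minus control on this scale. At 4 days and 48 h it was 0.24 at the low and 0.52 at the high dose. At 5 days and 48 h it was 0.28 and 0.43. At 6 days and 48 h it was -0.04 and -0.28, with 24 and 13 of the 59 above controls.

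At 48 h, 13 members were higher and 2 lower at the high dose than at the low dose (6.42% and 5.2% of all transcripts). The 2 became 0 without the 5-day sets, and 1 without the 6-day sets, with limma-voom, with the filterByExpr filter or with no filter. FMt022751, at rank 76 and among the 59, was 1 of the 2 that fell, and its difference was -0.91 ± 0.20 on the log2 scale (SE, edgeR adjusted p = 0.00057). Its high-dose libraries at 48 h ran from 4.69 to 21.5 CPM at 4 days, from 2.53 to 9.86 CPM at 5 days and from 2.74 to 26.9 CPM at 6 days. Its low-dose libraries ran from 5.24 to 22.9 CPM, from 2.53 to 82.5 CPM and from 7.63 to 52.5 CPM at these ages, so the groups overlapped at each age. Without the 5-day sets the difference was -0.48 (edgeR adjusted p = 0.27). FMt019962, at rank 45, was at -0.28 ± 0.16 in this comparison (SE, edgeR adjusted p = 0.27).

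The rise after 6 h itself was compared between the doses. It was larger at the high than at the low dose for 1 member, at rank 14, by 0.37 ± 0.09 on the log2 scale (SE, edgeR adjusted p = 0.008), and smaller for 0 (0.827% and 0.33% of all transcripts). The count of 1 became 2 without the 5-day sets and 0 without the 6-day sets. The median difference over the members was 0.11. For FMt043868 it was 0.05 ± 0.09 (SE, edgeR adjusted p = 0.89), and for FMt005587 0.24 ± 0.14 (SE, edgeR adjusted p = 0.51).

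Libraries of a group differed among themselves more in the 59 than in the 36. The median SD within groups was 0.65 on the log2(CPM+1) scale over the 59 and 0.29 over the 36, against 0.28 over all transcripts tested. The deviations of libraries from their group means went together within the 59, with a mean pairwise r of 0.44 over the 266 libraries. It was 0.18 within the 36, 0.11 between the 36 and the 59, and 0.02 over all transcripts tested. These are descriptions, since transcripts of a library share its depth and its RNA source.

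The identifiers are numbered, and 30 of the 100 members lie in 13 runs of consecutive numbers, the longest of 4. In 12 of these runs all members fell in the same one of the patterns, 4 among the 36 and 8 among the 59. Counted as runs and single transcripts, the 100 members make 83 separate entries. The members were more abundant than most transcripts, with a median of 33.5 CPM over all libraries against 5.30 CPM over the whole table, and a range of 1.64 to 802.8 CPM.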

How the data were processed

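Read counts per transcript, in whole numbers, are what the authors deposited. The series' design text has reads mapped to known transcripts of the species. RNA went through the SENSE mRNA-Seq library kit (version V2, Lexogen), per the labels' protocols. The submitters' processing notes name bcl2fastq 2.19.1, edgeR 3.26.8 and limma 3.40.6 without saying what each did. Aligner, counting rule and build: not given in the sources used here. Reads of isoforms and near-identical copies may be shared between transcripts. Of 270 labelled samples, 266 are analysed here.

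The members, comparisons and grouping were chosen with earlier results of these data known. Tests used edgeR 4.0.16 in R 4.3.3 on the 178 propranolol libraries, with 1 coefficient for each of 18 groups, TMM scaling, a filter at a mean of 0.5 CPM, estimated dispersions, robust quasi-likelihood F-tests and Benjamini-Hochberg adjustment over 30590 transcripts. An SE is the log2 fold change divided by the square root of F. Tables and plots used Python 3.11.15 with pandas 2.3.3 and matplotlib 3.10.9. In simulated counts of 30612 transcripts, the test of 24 h against 6 h found 96% of those given a 1.5-fold and 100% of those given a 2-fold change, and the test at about 5 days found 86% and 100%. The changed transcripts were drawn at random from those with a higher mean than the filter asked. Each transcript was simulated independently, with no effect of age or dose. These shares therefore need not hold for the 59, whose libraries differed more within groups and whose deviations went together. Printed identifiers are those of the 2 highest scores and of the 2 members with the lowest high over low dose fold change. The alternatives were RLE scaling, other filters, limma-voom 3.58.1, DESeq2 1.42.0, a replicate block, single doses and leaving out an age.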

Additional observations from a re-analysis of the deposited data

Results flagged for a closer look

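The rise after 6 h differed between 6-day and 4-day larvae, tested directly, for 86 members. It was larger at 6 days for 25 and smaller for 61 (13.0% and 14.1% of all transcripts). Its direction in each pattern is tied to the grouping, which used the same 6-day, 6 h libraries. FMt043868 differed by 0.79 on the log2 scale, FMt022751 by -1.33, FMt019962 by -2.97 and the member at rank 8 by -5.96. Between the high and the low dose the rise was larger at the high dose for 1 member, which is near the share of all transcripts (0.827%).

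Single libraries stood apart from their group in 11 of 108 tests over the 27 groups, where chance gives about 5% of groups. The values are on the log2(CPM+1) scale. For the mean over the 59 transcripts, high-dose library 34 of the 4-day, 24 h set was at 5.498, with the next library at 3.91. Low-dose library 25 of the 5-day, 48 h set was at 5.26, below the next at 6.46. High-dose library 41 of the 6-day, 24 h set was at 5.96 (next 6.59), high-dose library 37 of the 6-day, 48 h set at 5.80 (next 6.90) and high-dose library 37 of the 6-day, 6 h set at 3.76 (next 5.73). Control 14 of the 6-day, 6 h set was at 6.83, above the next at 6.18. FMt043868 was at 7.45 in high-dose library 37 of the 5-day, 48 h set (next 7.14). FMt005587 was at 6.69 in the same library (next 5.87), at 6.12 in high-dose library 43 of the 6-day, 24 h set (next 5.66), at 5.15 in control 1 of the 4-day, 48 h set (next 4.78) and at 0.66 in control 1 of the 6-day, 6 h set (next 1.32). No library stood apart for the mean over the 36 transcripts.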

How the results depend on the processing

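Counts of members were recomputed with RLE size factors, the filterByExpr filter, no filter, limma-voom, DESeq2, a replicate block, each dose alone, without each age and, chosen after seeing the data, without the 19 libraries far from their group. 349 of 368 recomputed counts stayed within 1.5 times the reported one, and the cause of the others was not tested. The 349 include counts of lower members that were 0 in every fit, as at 24 h and at 48 h over 6 h. The count higher in both comparisons at nearly equal age ran from 32 to 38 and that in neither from 58 to 61. With the low-dose libraries alone, 51 members were higher at 24 h than at 6 h at 6 days, and 15 were higher and 5 lower after 48 h at equal age. With the high-dose libraries alone, 9 were lower at 6 days than at 4 days at 6 h, 9 lower after 48 h at equal age, 4 lower at about 5 days and 23 lower at about 6 days. The 30 members higher at the high than at the low dose became 14 with limma-voom, 16 without the 4-day, 15 without the 5-day and 5 without the 6-day sets. Shares of all transcripts were not counted in the recomputed fits. The 2 lower at 48 h became 1 with filterByExpr, no filter, limma-voom or without the 6-day sets, and 0 without the 5-day sets. The 1 member with a larger rise at the high dose became 2 without the 5-day and 0 without the 6-day sets. Of the members, 96 were chosen again with TMM scaling, 74 and 80 with pseudocounts of 0.1 and 5, 58 in low-dose and 67 in high-dose libraries.

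With the library number as a replicate block, 36 members remained higher in both comparisons. Same-numbered libraries of different sets deviated with a median r of -0.0039 (low dose, -0.485 to 0.415) and 0.0027 (high dose, -0.360 to 0.563). For libraries with different numbers the medians were -0.0042 and -0.0018. Whether some same-numbered libraries share more than a number was not tested. The doses share no numbers, so no block was fitted between them. Of 855 recomputed fold changes of single transcripts, 0 called ones turned round, 28 lost and 3 gained a call.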
